A study of Mus musculus with 9 samples.

Results

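The cadherins and protocadherins of mouse embryonic midbrain dopamine (DA) neurons are described here, across neurons with 2, 1 or 0 functional alleles of the histone methyltransferase gene Dot1l. Members were all genes whose deposited symbol began with Cdh followed by a digit or with Pcdh. Symbols ending in os (antisense transcripts) or -ps (pseudogenes) were to be left out, but no matching symbol had such an ending. The rule found 93 of 47729 genes in the count files. They comprised 22 cadherins, 12 non-clustered protocadherins, and 59 clustered protocadherins, of which 15 belonged to the Pcdha, 22 to the Pcdhb and 22 to the Pcdhg gene cluster. The 93 genes carried 90 distinct symbols, since Pcdha4, Pcdha11 and Pcdhga8 were each given to 2 identifiers. These pairs are told apart below by identifier.

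Cadherins are calcium-dependent adhesion proteins of the cell surface. Classical cadherins bind catenins, which link them to the actin cytoskeleton, and the combination of type I and type II cadherins on a neuron takes part in sorting cells into nuclei and axons into tracts. Non-clustered protocadherins act in axon outgrowth and synapse formation: the delta-1 group carries a motif that binds protein phosphatase 1, and several delta-2 members recruit the WAVE complex, which drives actin branching. Clustered protocadherins lie in tandem arrays, and each variable exon has its own promoter. A neuron activates a few of these promoters, largely at random, under the control of CTCF, cohesin and DNA methylation, and the resulting set of surface proteins lets a neuron distinguish its own branches from those of other neurons. Dot1l methylates lysine 79 of histone H3, a mark found over the bodies of transcribed genes.

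All groups were Pitx3-Cre/+ embryos of the C57/Bl6 strain with a Cre-dependent YFP reporter at the Rosa locus, sorted by fluorescence at E15.75. They carried wild-type alleles only, Dot1l(+/+) with 3 libraries, 1 floxed allele, Dot1l(fl/+) with 3, or 2 floxed alleles, Dot1l(fl/fl) with 2. Cre is driven from the Pitx3 locus, so that recombination starts in post-mitotic DA precursors and every group, controls included, carried Cre in place of 1 Pitx3 allele. Each library was made from several pooled embryos, according to the study's methods, so that p-values measure the spread between pools. A further Dot1l(fl/fl) sample in the labels was not analysed here.

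Total counts ranged from 13616922 to 43674673 per library, with both Dot1l(fl/fl) libraries the shallowest, and 3 counts corresponded to between 0.0687 and 0.220 CPM, the count of a gene scaled by the size of its library. The members took between 0.288% and 0.330% of all counts. All 12 DA markers listed, among them Th, Slc6a3 and Pitx3, were detected. Dot1l itself was at 105.2, 84.6 and 94.6 CPM in Dot1l(+/+), at 75.5, 65.6 and 76.2 in Dot1l(fl/+), and at 64.9 in Dot1l(fl/fl) 1 and 99.0 in Dot1l(fl/fl) 2. The library labelled Dot1l(fl/fl) 2 therefore lay within the wild-type range. The count is over the whole gene, most of which lies outside the floxed exon, and does not measure the deletion. The dopaminergic list summed to between 6760 and 7690 CPM in Dot1l(+/+), 6690 and 7160 in Dot1l(fl/+), and 5410 and 6480 in Dot1l(fl/fl). In bulk samples, fewer cells of a type and less RNA per cell cannot be told apart.

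Of the type I classical cadherins, DA neurons carried Cdh4 (R-cadherin) and Cdh2 (N-cadherin, the main cadherin of neural adherens junctions) and almost no Cdh1 (E-cadherin, of epithelia) or Cdh3 (P-cadherin). Levels are compared between genes as CPM per kb of annotated exon, averaged over the 8 libraries with their SD. Cdh4 (GRCm38 chr2:179442431-179899373, plus strand) was at 35.2 ± 1.99 (SD, n = 8) CPM per kb. Cdh2 (chr18:16588877-16809246, minus strand) was at 28.8 ± 1.86 (SD, n = 8) on the same scale, and the ranges of the genes did not overlap. The median of the 17925 tested genes with an annotated length was 3.78 CPM per kb, and Cdh4 and Cdh2 stood at its 90.8 and 88.6 percentile. Cdh1 had 8 counts in Dot1l(+/+) 2, 10 in Dot1l(fl/+) 2, 25 in Dot1l(fl/fl) 1, 1 in Dot1l(fl/fl) 2, and 0 in the others. Cdh1 and Cdh3 did not pass the filter on low counts.

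Neither tested type I cadherin separated the genotypes clearly. Cdh4 was at 270, 238 and 278 CPM in Dot1l(+/+), 250, 265 and 253 in Dot1l(fl/+), and 250 and 239 in Dot1l(fl/fl). The 3 groups of Cdh4 overlapped, except that both Dot1l(fl/fl) values lay just under all 3 of Dot1l(fl/+). Cdh2 was at 251, 232 and 255 CPM in Dot1l(+/+), 218, 235 and 228 in Dot1l(fl/+), and 229 and 211 in Dot1l(fl/fl). Both Dot1l(fl/fl) values of Cdh2 were below every Dot1l(+/+) value.

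Type II cadherins, which bind in more selective combinations than type I, were led by Cdh8 at 22.5 ± 2.66 CPM per kb, followed by Cdh22 at 15.6 ± 2.18 and Cdh24 at 11.8 ± 1.46 (SD, n = 8 each). Cdh22 and Cdh24 overlapped in their ranges. Of the 13 type II genes 12 were tested, and 8 had a mean of 10 CPM or more. The exception was Cdh19, with 0 counts in every library. Cdh8 was at 189, 143 and 173 CPM in Dot1l(+/+), 202, 188 and 165 in Dot1l(fl/+), and 182 and 149 in Dot1l(fl/fl). Cdh22 was at 67.6, 46.8 and 56.6 CPM in Dot1l(+/+), 60.3, 51.9 and 57.8 in Dot1l(fl/+), and 69.6 and 50.02 in Dot1l(fl/fl). The spread within a genotype was larger than any difference between genotypes for both genes. Cdh24 was at 42.9, 35.7 and 42.3 CPM in Dot1l(+/+), 43.5, 45.5 and 38.1 in Dot1l(fl/+), and 33.5 and 48.6 in Dot1l(fl/fl), and the 2 Dot1l(fl/fl) libraries were the lowest and the highest of all 8.

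Among the other Cdh genes, Cdh13 (T-cadherin, which is anchored by a lipid and has no cytoplasmic tail) stood alone at 17.5 ± 2.08 CPM per kb (SD, n = 8). It was at 212, 172 and 177 CPM in Dot1l(+/+), 208, 227 and 189 in Dot1l(fl/+), and 221 and 166 in Dot1l(fl/fl), with full overlap of the groups. Cdh17 (LI-cadherin, of the intestine) was near the floor, with 13, 0 and 6 counts in Dot1l(+/+), 0 in each of the 3 Dot1l(fl/+) libraries, and 14 and 11 in Dot1l(fl/fl). No fold is given for it.

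**Figure D1:**
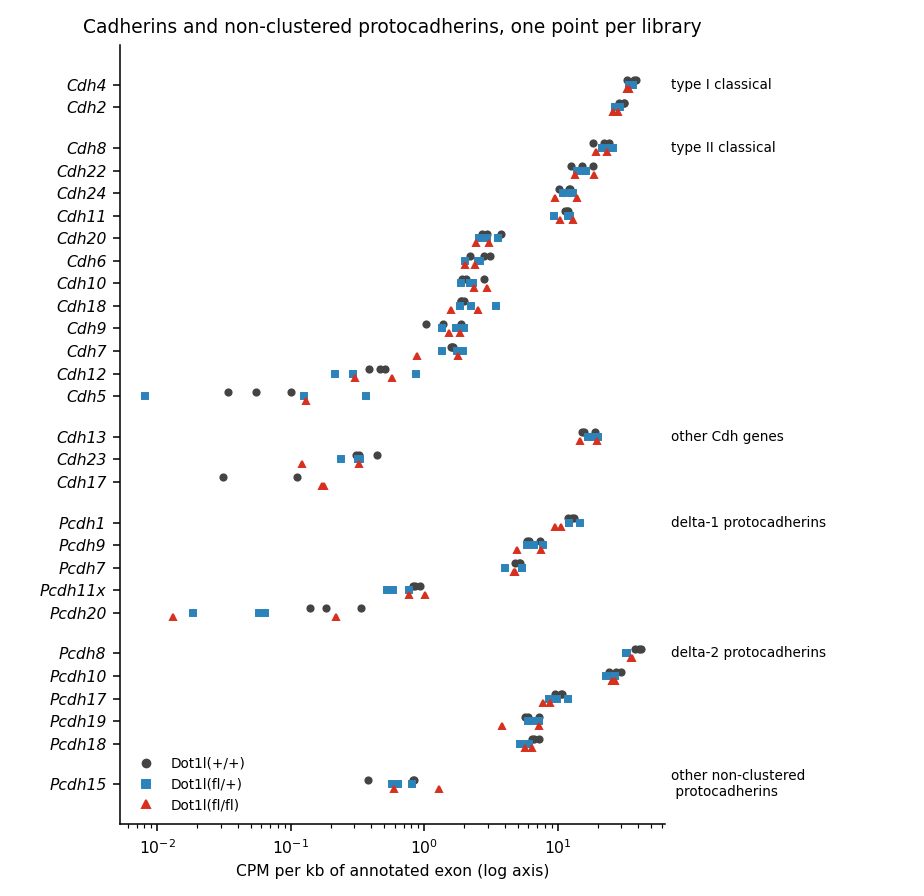
Level of each tested cadherin and non-clustered protocadherin in CPM per kb of annotated exon on a log axis, with 1 point per library, coloured by genotype, and values of 0 not drawn. Cdh4, Cdh2, Pcdh8 and Pcdh10 lie farthest to the right, and the genotypes overlap in most genes.

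The most abundant member per kb was a delta-2 protocadherin. Pcdh8 (arcadlin, which takes part in the internalization of N-cadherin at synapses; chr14:79766775-79771312, minus strand) was at 36.3 ± 3.59 CPM per kb, Pcdh10 (OL-protocadherin, which acts in axon outgrowth; chr3:45378398-45435623, plus strand) at 26.2 ± 2.08, and Pcdh17 (chr14:84443563-84539002, plus strand), which acts at synapses of corticobasal circuits, at 9.75 ± 1.36 (SD, n = 8 each). Pcdh8 and Cdh4 overlapped in their ranges. In CPM, without division by length, Pcdh10 was the highest of all members at a mean of 416 CPM. Pcdh18 and Pcdh19, at 6.203 ± 0.605 and 6.208 ± 1.154 CPM per kb, could not be ordered.

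The promoter windows of these 3 genes are shown because all 5 delta-2 promoters held the same short motif. The windows run from 250 bases before to 50 bases after the transcription start, read along the gene, and come from RefSeq (GRCm38.p6). Capitals mark ATTGG, the reverse complement of the CCAAT box. The Pcdh8 window is chr14:79771263-79771562 on the minus strand, the Pcdh10 window chr3:45378148-45378447 on the plus strand, and the Pcdh17 window chr14:84443313-84443612 on the plus strand.
Pcdh8: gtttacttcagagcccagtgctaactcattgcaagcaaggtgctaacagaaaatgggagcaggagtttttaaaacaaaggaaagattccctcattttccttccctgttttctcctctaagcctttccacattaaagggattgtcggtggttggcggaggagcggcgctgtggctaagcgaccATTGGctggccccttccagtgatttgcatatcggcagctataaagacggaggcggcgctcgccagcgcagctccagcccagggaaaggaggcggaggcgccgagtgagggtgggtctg
Pcdh10: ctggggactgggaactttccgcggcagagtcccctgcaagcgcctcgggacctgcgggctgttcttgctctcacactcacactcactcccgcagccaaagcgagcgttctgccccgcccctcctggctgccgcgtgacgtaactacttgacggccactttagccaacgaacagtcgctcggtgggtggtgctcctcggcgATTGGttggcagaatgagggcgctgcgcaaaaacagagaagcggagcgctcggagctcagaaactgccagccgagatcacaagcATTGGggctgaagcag
Pcdh17: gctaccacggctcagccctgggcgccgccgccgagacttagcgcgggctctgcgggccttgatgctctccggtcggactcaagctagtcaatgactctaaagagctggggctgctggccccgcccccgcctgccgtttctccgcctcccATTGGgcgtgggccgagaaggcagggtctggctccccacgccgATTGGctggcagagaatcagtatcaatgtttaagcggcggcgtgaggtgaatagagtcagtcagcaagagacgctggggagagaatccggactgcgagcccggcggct

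CCAAT, searched on both strands, was in 5 of 5 delta-2 windows and in 37.4% of all 32851 windows searched. In the delta-2 windows each match was on the strand opposite to the gene, where it was found in 22.1% of all windows. The longer run ATTGGCTGG, which contains that match, was in the Pcdh8, Pcdh17 and Pcdh18 windows and in 0.5% of all windows. GGGCGG on either strand was in the windows of Pcdh10, Pcdh17, Pcdh18 and Pcdh19 and in 35.7% of all, and TATAAA on either strand was in that of Pcdh8 and in 13.6% of all. The motifs were chosen after the sequences were read. CCAAT was in 3 of 4 delta-1 windows, in that of Pcdh15, and in 6 of 12 windows of type II cadherins. The delta-1 windows belonged to 3 genes, with overlapping windows of Pcdh9 counted apart, and the type II windows to 10 genes. Windows on chromosome 18 were left out of the search and of the shares of all windows. That chromosome holds every clustered member as well as Cdh2, Pcdh1 and Pcdh12, which were therefore not searched. On the other chromosomes promoters were found for 21 members, and a match describes letters, not a site in use.

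The delta-1 group was led by Pcdh1 (chr18:38185914-38212053, minus strand), an adhesion molecule also known from airway epithelium, at 12.1 ± 1.54 CPM per kb. Pcdh9 at 6.52 ± 0.954 and Pcdh7 (NF-protocadherin) at 4.93 ± 0.459 followed (SD, n = 8 each). The ranges of Pcdh9 and Pcdh7 overlapped, and that of Pcdh1 lay above both. Pcdh9 was at 39.9, 49.6 and 41.6 CPM in Dot1l(+/+), 45.3, 52.7 and 40.1 in Dot1l(fl/+), and 33.8 and 50.7 in Dot1l(fl/fl). Pcdh7 was at 55.7, 50.4 and 54.3 CPM in Dot1l(+/+), 57.5, 57.0 and 42.8 in Dot1l(fl/+), and 49.9 and 50.8 in Dot1l(fl/fl). Neither gene separated the genotypes. Outside the delta groups, Pcdh15 (a component of the tip links of hair cells) was at 19.5, 9.02 and 19.9 CPM in Dot1l(+/+), 19.3, 15.2 and 13.6 in Dot1l(fl/+), and 14.1 and 30.8 in Dot1l(fl/fl), again with overlap.

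Nearly the whole clustered repertoire was detected in each pool of neurons. Of the 15 Pcdha genes between 12 and 13 had counts in any library, of the 22 Pcdhb genes between 21 and 22, and of the 22 Pcdhg genes 21. The shares of the genes were uneven but not dominated by 1 promoter, as the plot of shares within each cluster shows. Expressed as an effective number of equally used genes (the exponential of the Shannon entropy of the shares), the clusters held between 9.77 and 10.8 (Pcdha), 16.5 and 18.3 (Pcdhb), and 14.1 and 15.73 (Pcdhg) genes per library. Each library pools many neurons, so these numbers describe the population and not a cell.

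**Figure D2:**
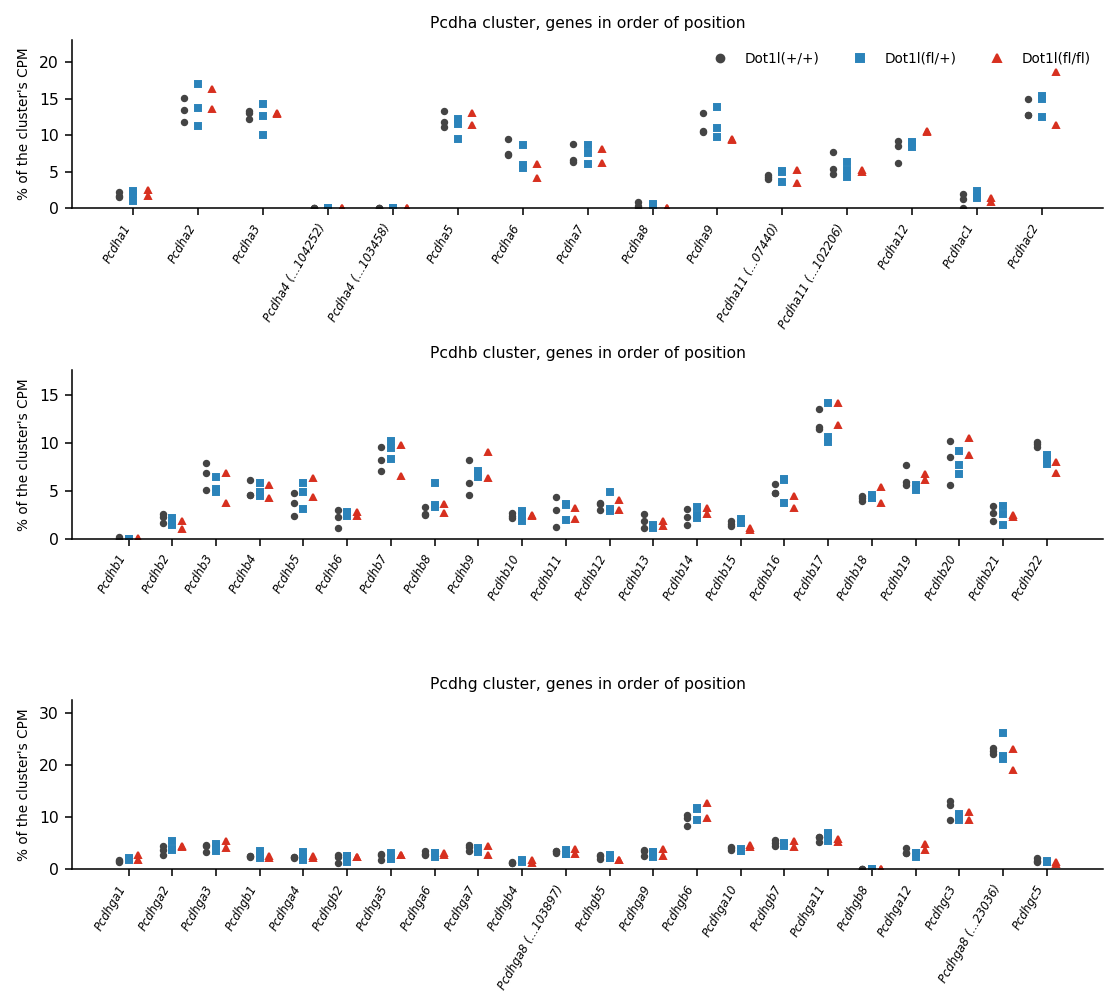
Share of each gene in the summed CPM of its cluster, in percent, with genes in order of position, 1 point per library and colours for the genotypes. Pcdhga8 (ENSMUSG00000023036) takes the largest share of the Pcdhg cluster, between 19.0% and 26.2%, and Pcdhb17 leads the Pcdhb cluster in all 8 libraries, whereas the leading Pcdha gene differs between libraries.

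The reads that the clusters' genes share affect these levels. Each Pcdha transcript is spliced to constant exons common to the Pcdha cluster, and each Pcdhg transcript to those of the Pcdhg cluster, whereas Pcdhb genes have no constant exons. Genes without an exon base of their own on their strand had 0 counts in all libraries in 93.9% of 623 cases, against 49.5% of 46276 genes with own bases on both strands, so bases shared between genes contributed few or no counts. A median of 46.4% of the exon length of Pcdha genes was unshared, 55.3% of that of Pcdhg genes, and at least 90.3% of that of each Pcdhb gene. Levels per kb of all annotated exon are therefore low for Pcdha and Pcdhg, and values per kb of unshared exon are given beside them. Both Pcdha4 identifiers and Pcdhgb8 had 0 counts throughout. The Pcdha4 identifiers had 0.0% and 8.6% of their exon length unshared, and Pcdhgb8, typed as a polymorphic pseudogene in the annotation, had 54.1%.

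Pcdhga8 (ENSMUSG00000023036) was the most abundant clustered member, at 20.8 CPM per kb of exon and 33.5 per kb of unshared exon. The annotation used here (GENCODE vM21) names this identifier Pcdhgc4, a C-type gene at the end of the cluster (chr18:37815079-37841873, plus strand). Pcdhgb6 came next in the Pcdhg cluster, with 11.6 and 21.2. In the Pcdhb cluster, Pcdhb17 led at 5.97 CPM per kb, and Pcdhb7 followed at 5.65 with an overlapping range. In the Pcdha cluster, Pcdha2 led at 3.199 and Pcdhac2 followed at 2.91 CPM per kb, or 6.86 and 5.66 per kb of unshared exon. On the latter scale Pcdha3, at 6.26, and Pcdha5, at 6.08, were above Pcdhac2.

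The first comparison concerns loss of both Dot1l alleles. In Dot1l(fl/fl) against Dot1l(+/+), no member passed an adjusted p of 0.05 in edgeR's quasi-likelihood test, and the share of all 17988 genes tested that passed was 0.0%. DESeq2 also called 0 members, with 12 at an unadjusted p under 0.05, while it called 197 genes in all. At an unadjusted p under 0.05 the edgeR test gave 12 members, all of them lower and 10 of them clustered, and none higher. The background at that threshold was 5.03% of all genes lower and 4.24% higher. Of the 83 members tested 66 were lower at any p (79.5%, against 50.4% of all genes). The 10 members left out by the filter on low counts were Cdh1, Cdh3, Cdh16, Cdh19, Cdh26, Pcdh12, both Pcdha4 identifiers, Pcdhb1 and Pcdhgb8, of which 5 had no counts in any library. The 12 members with the smallest p were Pcdhb2, Pcdhb3, Pcdhb16 and Pcdhb22 of the Pcdhb cluster, Pcdha6 and Pcdha9 of the Pcdha cluster, Pcdhgb5, Pcdhgc3, Pcdhgc5 and Pcdhga8 (ENSMUSG00000023036) of the Pcdhg cluster, and Pcdh1 and Pcdh17.

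The lower values were shared by the 3 gene clusters. Of the clustered genes, 12 of 13 in Pcdha, 18 of 21 in Pcdhb and 19 of 21 in Pcdhg had a lower fitted value. Their median log2 fold changes were -0.23, -0.27 and -0.25, beside a median of -0.003 for all genes. The 407 tested genes of chromosome 18 that were no members had a median of -0.01 (genes at 0 in a genotype left out). All Dot1l(fl/fl) values lay below all Dot1l(+/+) values in 17 of 55 clustered genes and above them in 0, against 11.6% and 12.1% of all genes. The members of a cluster share a locus, and those of Pcdha and Pcdhg also share constant exons, so members are no replicates of one another.

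The summed level of a cluster separated Dot1l(fl/fl) from Dot1l(+/+) in Pcdhb and Pcdhg and not in Pcdha. The Pcdhb genes together were at 245.7, 236.7 and 248.4 CPM in Dot1l(+/+), 254.2, 229.3 and 207.3 in Dot1l(fl/+), and 214.5 and 188.6 in Dot1l(fl/fl). The Pcdhg genes were at 554.8, 500.2 and 599.4 CPM in Dot1l(+/+), 524.3, 530.4 and 505.5 in Dot1l(fl/+), and 474.4 and 458.2 in Dot1l(fl/fl). In both clusters the 2 Dot1l(fl/fl) libraries were below all 3 Dot1l(+/+) libraries, with means 17.3% and 15.4% lower. The Pcdha genes were at 140.3, 101.8 and 154.7 CPM in Dot1l(+/+), 127.4, 114.9 and 115.8 in Dot1l(fl/+), and 118.1 and 101.3 in Dot1l(fl/fl). Here Dot1l(+/+) 2 was as low as Dot1l(fl/fl), and the groups overlapped.

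**Figure D3:**
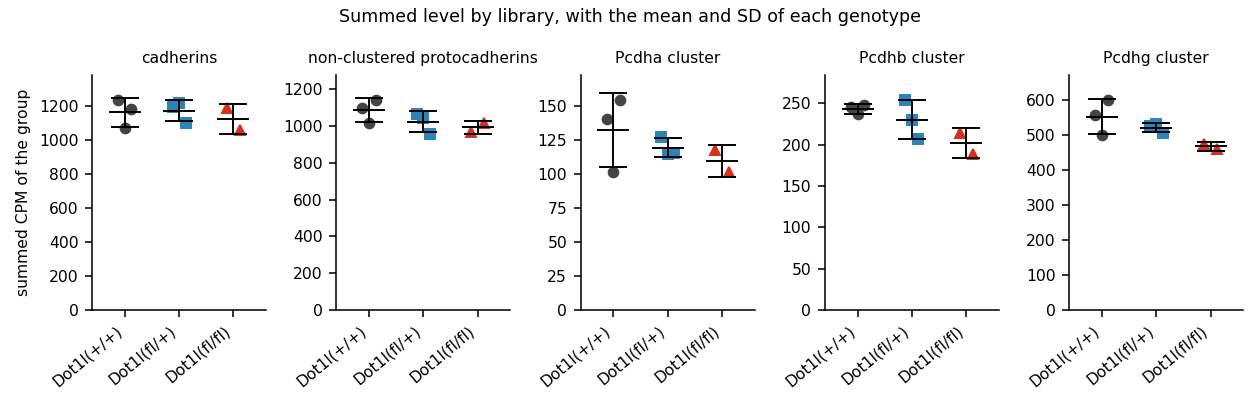
Summed CPM of the cadherins, the non-clustered protocadherins and the 3 gene clusters, with 1 point per library and the mean and SD of each genotype in black; axes start at 0. The Pcdhb and Pcdhg sums of both Dot1l(fl/fl) libraries lie below the 3 Dot1l(+/+) libraries, and the cadherin sums overlap.

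The Pcdha median rested on 1 library. It was -0.56 without Dot1l(fl/fl) 1 and -0.04 without Dot1l(fl/fl) 2, whereas the Pcdhb median was -0.38 and -0.20 and the Pcdhg median -0.18 and -0.23 in the same fits. Without Dot1l(fl/fl) 2, whose Dot1l level was in the wild-type range, 39 of 56 clustered genes were lower, and 51 of 56 without Dot1l(fl/fl) 1. The number of members at an unadjusted p under 0.05, 12 with all libraries, became 15 when Dot1l(+/+) 2 was left out and was 6 without Dot1l(+/+) 3 and 8 without Dot1l(+/+) 1 or without Dot1l(fl/fl) 1.

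Of the 17 cadherins tested, 9 were higher and 8 lower. Their log2 fold changes had a median of 0.005, and none had an unadjusted p under 0.05. The cadherin median also depended on the library, at -0.135 without Dot1l(fl/fl) 1 and 0.115 without Dot1l(fl/fl) 2. Their summed level was 1238.2, 1070.9 and 1184.6 CPM in Dot1l(+/+), 1194.6, 1222.1 and 1103.1 in Dot1l(fl/+), and 1188.4 and 1060.9 in Dot1l(fl/fl). Of the 11 tested non-clustered protocadherins 9 were lower, including all 5 delta-2 genes, with a median of -0.16. That median was -0.04 once the length and GC content of each gene's longest transcript entered the fit as an offset. The Pcdha, Pcdhb and Pcdhg medians were then -0.15, -0.29 and -0.16. The difference between cadherins and clustered protocadherins was not tested, since the members are not independent of one another.

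**Figure D4:**
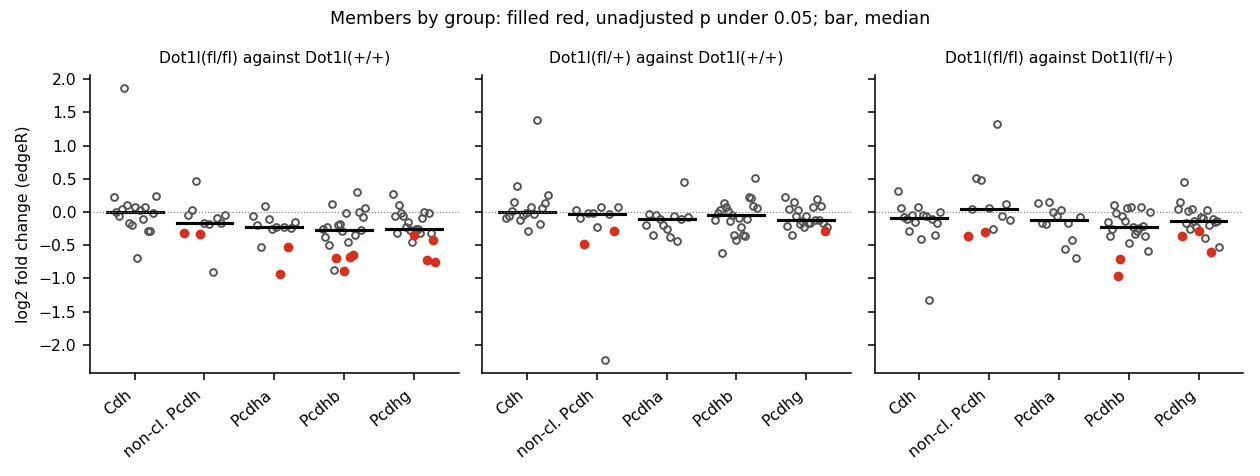
log2 fold change (edgeR) of each tested member by group in the 3 comparisons, with 1 point per gene, filled red points at an unadjusted p under 0.05 and bars at the group median; members at 0 in a genotype are left out. In Dot1l(fl/fl) against Dot1l(+/+) the medians of the 3 clusters lie between -0.27 and -0.23 and that of the cadherins at 0.005.

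The member with the smallest p was Pcdhb22, the last gene of the Pcdhb cluster (chr18:37517871-37524479, plus strand). It was at 23.5, 24.0 and 24.7 CPM in Dot1l(+/+), 19.8, 19.1 and 18.1 in Dot1l(fl/+), and 17.2 and 12.9 in Dot1l(fl/fl). None of the 3 genotypes overlapped, in the order of the number of intact alleles. The log2 fold change in Dot1l(fl/fl) against Dot1l(+/+) was -0.675 ± 0.203 (SE; edgeR, adjusted p = 0.268). In Dot1l(fl/+) it was -0.34 ± 0.18 (SE; adjusted p = 0.94), and between Dot1l(fl/fl) and Dot1l(fl/+) -0.33 ± 0.20.

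Pcdhgc3 (chr18:37806364-37841873, plus strand), a C-type gene, was at 68.9, 65.8 and 57.0 CPM in Dot1l(+/+), 56.1, 50.1 and 51.0 in Dot1l(fl/+), and 44.5 and 50.7 in Dot1l(fl/fl). All values of both floxed genotypes lay below all wild-type values, and the floxed genotypes overlapped with each other. The log2 fold change was -0.425 ± 0.143 (SE; edgeR, adjusted p = 0.311) in Dot1l(fl/fl) and -0.285 ± 0.125 (adjusted p = 0.94) in Dot1l(fl/+), both against the same controls. It was -0.14 ± 0.14 between the floxed genotypes.

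The other C-type genes of the Pcdhg cluster were looked at after these values were seen. C-type genes stand at the ends of the Pcdha and Pcdhg clusters and, unlike the others, are expressed constitutively by many neurons. Pcdhga8 (ENSMUSG00000023036), Pcdhgc4 in the annotation, was at 129, 111 and 136 CPM in Dot1l(+/+), 137, 112 and 110 in Dot1l(fl/+), and 109 and 87.2 in Dot1l(fl/fl), with a log2 fold change of -0.35 ± 0.13 (SE; edgeR, adjusted p = 0.372). Pcdhgc5 was at 11.6, 7.94 and 7.79 CPM in Dot1l(+/+), 7.59, 8.47 and 7.31 in Dot1l(fl/+), and 6.34 and 4.39 in Dot1l(fl/fl), at -0.76 ± 0.31 (SE; adjusted p = 0.443). In all 3 Pcdhg C-type genes both Dot1l(fl/fl) libraries were below all Dot1l(+/+) libraries, as in 11.6% of all genes. All 3 were already among the members listed above at an unadjusted p under 0.05 in edgeR, so this separation adds no evidence about C-type genes as a class. The C-type genes of the Pcdha cluster did not separate: Pcdhac2 was at 21.0, 13.004 and 19.8 CPM in Dot1l(+/+), 15.99, 17.7 and 17.2 in Dot1l(fl/+), and 13.5 and 18.9 in Dot1l(fl/fl).

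Pcdha6 (chr18:36967631-37187657, plus strand) was at 10.3, 9.65 and 11.3 CPM in Dot1l(+/+), 11.02, 6.85 and 6.32 in Dot1l(fl/+), and 4.86 and 6.12 in Dot1l(fl/fl). Both Dot1l(fl/fl) values were below all others. Its log2 fold change was -0.93 ± 0.31 (SE; edgeR, adjusted p = 0.311) against Dot1l(+/+), and -0.56 ± 0.31 against Dot1l(fl/+). In Dot1l(fl/+) against Dot1l(+/+) it was -0.37 ± 0.27, with overlap. The leading Pcdha genes by level did not share this: Pcdha2 was at 21.1, 12.1 and 20.7 CPM in Dot1l(+/+), 17.4, 12.9 and 19.7 in Dot1l(fl/+), and 19.3 and 13.8 in Dot1l(fl/fl).

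The other members named for their level in the Pcdhb and Pcdhg clusters overlapped between at least some genotypes. Pcdhb17 was at 28.2, 32.0 and 29.0 CPM in Dot1l(+/+), 36.1, 23.1 and 21.99 in Dot1l(fl/+), and 25.4 and 26.7 in Dot1l(fl/fl), with Dot1l(fl/fl) below Dot1l(+/+) but inside the range of Dot1l(fl/+). Pcdhb7 was at 20.1, 22.7 and 17.6 CPM in Dot1l(+/+), 24.1, 19.0 and 21.1 in Dot1l(fl/+), and 21.0 and 12.3 in Dot1l(fl/fl). Pcdhgb6 was at 58.0, 41.7 and 59.5 CPM in Dot1l(+/+), 49.6, 62.5 and 58.1 in Dot1l(fl/+), and 47.0 and 58.1 in Dot1l(fl/fl). Pcdha8 had 12, 0 and 56 counts in Dot1l(+/+), 0, 20 and 17 in Dot1l(fl/+), and 0 in both Dot1l(fl/fl) libraries, and no fold is given for it.

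Of the non-clustered genes, Pcdh1 and Pcdh17 had the smallest p in this comparison. Pcdh1 was at 112, 105 and 117 CPM in Dot1l(+/+), 107, 106 and 128 in Dot1l(fl/+), and 93.0 and 84.5 in Dot1l(fl/fl), so that both Dot1l(fl/fl) values lay below all 6 others. Its log2 fold change was -0.32 ± 0.12 (SE; edgeR, adjusted p = 0.361) against Dot1l(+/+) and -0.36 ± 0.12 (adjusted p = 0.998) against Dot1l(fl/+), and 0.04 ± 0.11 for the heterozygotes against Dot1l(+/+). Pcdh17 was at 140, 125 and 138 CPM in Dot1l(+/+), 155, 129 and 112 in Dot1l(fl/+), and 100 and 114 in Dot1l(fl/fl). The Dot1l(fl/fl) values were below all wild-type values but overlapped with Dot1l(fl/+) through Dot1l(fl/+) 3. The log2 fold change was -0.33 ± 0.13 (SE; edgeR, adjusted p = 0.398) against Dot1l(+/+), -0.31 ± 0.13 against Dot1l(fl/+), and -0.02 ± 0.11 for the heterozygotes against Dot1l(+/+). With the length and GC offset, the values against Dot1l(+/+) were -0.16 for Pcdh1 and -0.149 for Pcdh17, and with the offset and the replicate block together -0.106 and -0.179.

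**Figure D5:**
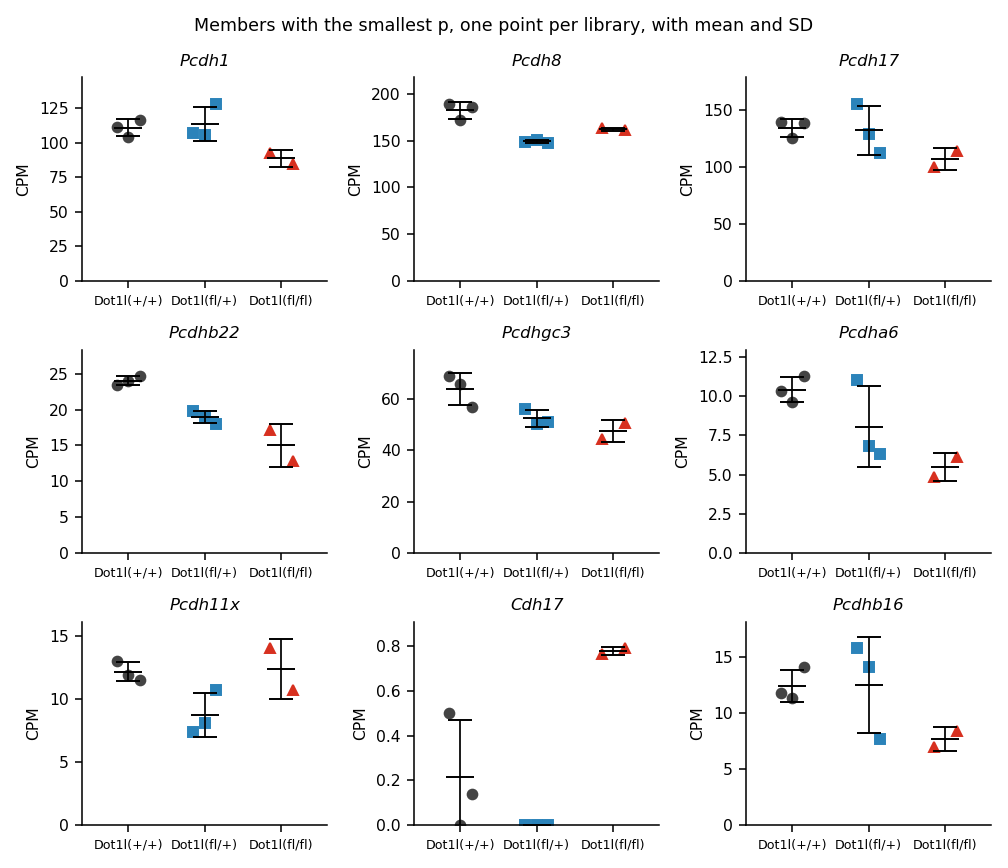
CPM of the 9 members with the smallest p values in any comparison, with 1 point per library and the mean and SD of each genotype in black; axes start at 0. Pcdhb22 steps down over the 3 genotypes without overlap, Pcdh1 is lowest in Dot1l(fl/fl), and Pcdh8 is lowest in Dot1l(fl/+).

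The second comparison concerns loss of 1 allele. In Dot1l(fl/+) against Dot1l(+/+), 0 members and 0.0% of all genes passed the adjusted threshold in edgeR, and DESeq2 called 0 members, with 4 at an unadjusted threshold of 0.05. The unadjusted p was below 0.05 for 3 members, all lower, against a background of 2.86% of genes lower and 2.16% higher. Of the 83 members 55 were lower at any p (66.3%, against 51.0% of all genes). The medians were -0.11 for Pcdha, -0.04 for Pcdhb, -0.12 for Pcdhg, -0.03 for the non-clustered protocadherins and -0.008 for the cadherins. Without Dot1l(+/+) 3 the Pcdha, Pcdhb and Pcdhg medians were 0.006, 0.001 and -0.002, and 27 of 55 clustered genes were lower in place of 38. The Pcdha median was -0.323 without Dot1l(+/+) 2, and the Pcdhb median was -0.141 without Dot1l(fl/+) 1 and 0.024 without Dot1l(fl/+) 3. Both this comparison and the first use the same 3 wild-type libraries, so that their values are not independent.

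Pcdh8 had the smallest p here. It was at 189, 172 and 186 CPM in Dot1l(+/+), 148, 151 and 148 in Dot1l(fl/+), and 163 and 161 in Dot1l(fl/fl). The 3 genotypes did not overlap, but the heterozygotes were the lowest. The log2 fold change was -0.29 ± 0.09 (SE; edgeR, adjusted p = 0.94) in Dot1l(fl/+), -0.17 ± 0.10 in Dot1l(fl/fl) against Dot1l(+/+), and 0.12 ± 0.10 between the floxed genotypes. The delta-2 gene with the most counts, Pcdh10, was at 431, 382 and 474 CPM in Dot1l(+/+), 418, 429 and 367 in Dot1l(fl/+), and 427 and 404 in Dot1l(fl/fl), with overlap of all groups. Pcdh11x, an X-linked delta-1 gene, was at 13.003, 11.9 and 11.5 CPM in Dot1l(+/+), 7.39, 8.08 and 10.7 in Dot1l(fl/+), and 14.04 and 10.7 in Dot1l(fl/fl). It was lower in Dot1l(fl/+) by -0.48 ± 0.23 on the log2 scale (SE; edgeR, adjusted p = 0.94), at 0.03 ± 0.26 in Dot1l(fl/fl) against Dot1l(+/+), and 0.51 ± 0.26 higher in Dot1l(fl/fl) than in Dot1l(fl/+). With the length and GC offset, Pcdh8 was at -0.046 in Dot1l(fl/fl) and Pcdh11x at -0.267 in Dot1l(fl/+), each against wild type.

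In the direct comparison of Dot1l(fl/fl) with Dot1l(fl/+), 0 members and 0.0% of all genes passed in edgeR, and DESeq2 called 0 members, with 9 at an unadjusted threshold of 0.05. The unadjusted p was below 0.05 for 7 members lower and 1 higher, against 2.16% of genes lower and 1.86% higher. The gene that was higher was Cdh17, whose counts are given above. Of the 83 members 59 were lower at any p (71.1%, against 49.8% of all genes), with medians of -0.16 in Pcdha, -0.23 in Pcdhb and -0.14 in Pcdhg. Without Dot1l(fl/fl) 2 the Pcdha median was 0.038 and 33 of 56 clustered genes were lower, against a median of -0.332 and 41 of 56 without Dot1l(fl/fl) 1. Pcdhb16 (chr18:37477814-37483038, plus strand) was at 11.8, 11.4 and 14.1 CPM in Dot1l(+/+), 15.82, 14.1 and 7.66 in Dot1l(fl/+), and 6.94 and 8.42 in Dot1l(fl/fl). Dot1l(fl/+) 3 was as low as Dot1l(fl/fl). The log2 fold change of Pcdhb16 was -0.71 ± 0.29 (SE; edgeR, adjusted p = 0.998) against Dot1l(fl/+), -0.70 ± 0.29 against Dot1l(+/+), and 0.01 ± 0.25 for the heterozygotes against Dot1l(+/+).

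Other genes were counted from lists in Dot1l(fl/fl) against Dot1l(+/+). The lists held relatives of the members, here called large cadherins, and proteins known to bind, cut or regulate members. None passed the adjusted threshold in edgeR. The list of large cadherins held Fat, Dachsous, Celsr, calsyntenin and Cdhr genes and also Fjx1, which is not a cadherin. Of this list, 13 of 13 tested were lower, 5 at an unadjusted p under 0.05, with a median of -0.24. Of all genes, 50.4% were lower in this comparison and 5.03% were lower at that p. Celsr2, an atypical cadherin of planar cell polarity and axon guidance, was at 220, 169 and 228 CPM in Dot1l(+/+), 179, 186 and 167 in Dot1l(fl/+), and 146 and 157 in Dot1l(fl/fl). Both Dot1l(fl/fl) values were below all others, at a log2 fold change of -0.44 ± 0.12 (SE; edgeR, adjusted p = 0.248) against Dot1l(+/+). Celsr1, its relative, had -0.89 ± 0.34 (adjusted p = 0.393) at under 10 CPM in every library.

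The catenins, which couple cadherins to actin, were evenly split, with 6 of 14 higher and 8 lower and 2 of the latter at an unadjusted p under 0.05. These were Ctnnd2 (delta-catenin, enriched in neurons) at -0.34 ± 0.10 (SE; edgeR, adjusted p = 0.269) and Ctnna1 (alpha-E-catenin) at -0.29 ± 0.11 (adjusted p = 0.376). Of 10 proteases that shed or cut cadherins 6 were lower, and of 14 WAVE complex genes and protocadherin kinases 7 were lower, with medians of -0.01 and -0.005 and 0 at an unadjusted p under 0.05. The smallest p values were those of Ncstn (nicastrin, of gamma-secretase) at -0.23 ± 0.12 and Mmp14 at -0.31 ± 0.25 in the former list, and of Brk1 at 0.18 ± 0.12 and Abi2 at -0.15 ± 0.11 in the latter.

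Of 19 tested regulators of clustered protocadherin promoters (CTCF, cohesin and its loaders, DNA methyltransferases, histone methyltransferases and others), 15 were lower, 6 of them at an unadjusted p under 0.05, with a median of -0.21, beside the same 50.4% and 5.03% of all genes. Hnrnpul2 was at 312, 289 and 308 CPM in Dot1l(+/+), 293, 288 and 272 in Dot1l(fl/+), and 239 and 259 in Dot1l(fl/fl), at -0.285 ± 0.097 (SE; edgeR, adjusted p = 0.321). Smchd1, which silences clustered protocadherin and imprinted genes, was at 76.4, 81.0 and 81.7 CPM in Dot1l(+/+), 65.1, 78.5 and 61.2 in Dot1l(fl/+), and 53.4 and 69.3 in Dot1l(fl/fl), at -0.38 ± 0.14 (adjusted p = 0.361). Both genes were below all wild-type values in Dot1l(fl/fl). In Dot1l(fl/+) against Dot1l(+/+), 12 of 13 tested genes of the large cadherin list and 14 of 19 regulators were lower. In each list 2 were lower at an unadjusted p under 0.05, beside 51.0% and 2.86% of all genes.

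Some other marker lists also differed between genotypes or between single libraries. The 9 genes of the response to dissociation, among them Fos, Jun and Dusp1, summed to between 1000 and 1160 CPM in Dot1l(+/+), 975 and 1230 in Dot1l(fl/+), and 1370 and 1390 in Dot1l(fl/fl), with no overlap between Dot1l(fl/fl) and the rest. The 6 GABAergic markers summed to between 204 and 225 CPM in Dot1l(+/+), 196 and 231 in Dot1l(fl/+), and 235 and 264 in Dot1l(fl/fl). Slc32a1, the vesicular GABA transporter, made up most of that difference, at 156 and 129 CPM in Dot1l(fl/fl) and between 106 and 120 in the other libraries, and the median log2 fold change of the list against Dot1l(+/+) was -0.25, with 1 gene higher at an unadjusted p under 0.05. Both Dot1l(fl/fl) libraries were above all others in the GABAergic sum and below all others in the dopaminergic sum given above, where 8 of 12 genes were lower at an unadjusted p under 0.05. The list named glutamatergic summed to between 438 and 494 CPM in Dot1l(+/+), 443 and 473 in Dot1l(fl/+), and 401 and 433 in Dot1l(fl/fl). Both Dot1l(fl/fl) libraries were below all others. Most of that sum came from Slc17a6 and from Lmx1a, which is not confined to glutamatergic neurons, so the sum is no measure of glutamatergic cells alone. Lmx1a was at 252, 215 and 270 CPM in Dot1l(+/+), 238, 241 and 234 in Dot1l(fl/+), and 230 and 183 in Dot1l(fl/fl). In the same order, Slc17a6 was at 164, 206 and 195, at 210, 197 and 181, and at 186 and 192, with overlap of the genotypes. Neither gene alone separated Dot1l(fl/fl) from Dot1l(+/+). Motor neuron markers, 4 of 6 of them at a mean under 1 CPM, summed to at most 4.02 CPM in the other genotypes and to 4.32 and 6.45 in Dot1l(fl/fl). Blood genes reached 40.01 CPM in the library labelled Dot1l(fl/fl) 2 and at most 18.7 elsewhere. The part of these lists in the protocadherin values was not tested.

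The 10 endothelial markers summed to between 6.602 and 14.3 CPM in Dot1l(+/+), 6.72 and 19.3 in Dot1l(fl/+), and 13.7 and 14.2 in Dot1l(fl/fl), with 5 of 10 at a mean under 1 CPM. Of the members known from endothelium, Cdh5 (VE-cadherin) was highest in Dot1l(fl/+) 3, at 1.55 CPM, the library with the highest endothelial sum. Pcdh12 had 15 counts in that library, 4 in Dot1l(+/+) 1, 5 and 3 in Dot1l(fl/fl), and 0 in the others. Markers of radial glia summed to between 225 and 269 CPM and of microglia to between 97.2 and 137 CPM over all libraries, and the genotypes overlapped in both.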

How the data were processed

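RNA of sorted YFP+ midbrain DA neurons was sequenced with a directional kit. The authors deposited raw counts per gene and library; their processing notes name bcl2fastq 2.17, Trimmomatic 0.30, DESeq2 1.10.1 and GRCm38.p4, and the aligner and counter are not given in the sources used here. Gene symbols came from a column the authors deposited beside their own comparison, whose fold changes and p-values were not used. Samples were grouped by the labels' genotype, and 8 libraries had counts. The members, gene lists and tests were chosen with earlier results of these data known.

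Counts of the 3 genotypes were fitted together in edgeR 4.0.16 (R 4.3.3; filterByExpr, TMM factors, quasi-likelihood F test, no covariate), with Benjamini-Hochberg adjustment over 17988 genes and a threshold of 0.05. CPM use TMM-scaled library sizes. The fits were also run on simulated counts with a fixed spread and with changes larger than those of most members. That run does not bear on changes of the size seen in the members. DESeq2 1.42.0, other factors and filters, a length and GC offset, a replicate block and the omission of each library were alternatives. Exon lengths came from GENCODE vM21, which matched 99.1% of genes. Intervals of counting error and the 3-count floor take no account of PCR copies. Named members were those with the highest CPM per kb (3 in each of type I, type II, delta-1 and delta-2, 2 in each cluster, 1 in each remaining group), the 4 with the smallest p in each comparison, and Cdh5 and Pcdh12. From each list of partner genes or large cadherins the 2 with the smallest p were named.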

Additional observations from a re-analysis of the deposited data

How the results depend on the processing

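The count of members past the adjusted threshold was 0 in each comparison in all 17 alternative fits, 8 of which left out 1 library. Over all genes, where the edgeR count was 0 in each comparison, Dot1l(fl/fl) against Dot1l(+/+) gave 197 with DESeq2, 106 with no filter, 9 with the offset, 2 at a mean count of at least 50, 6 and 20 with the block without and with the offset, 75 without Dot1l(+/+) 2, 50 without Dot1l(fl/fl) 2 and 4 without Dot1l(fl/fl) 1. Dot1l(fl/+) against Dot1l(+/+) gave 11 with no filter, and Dot1l(fl/fl) against Dot1l(fl/+) gave 14 with no filter, 1 with DESeq2, 4 and 8 with the block, and 7 in each fit that left out a Dot1l(fl/fl) library. Other than by the omission of libraries, the medians that moved by more than the spread between libraries were those of the non-clustered protocadherins with the length and GC offset (-0.037 in Dot1l(fl/fl) and 0.056 in Dot1l(fl/+), each against Dot1l(+/+)) and with the replicate block and offset together (-0.053 in Dot1l(fl/fl)). When single libraries were left out, medians in Dot1l(fl/fl) against Dot1l(+/+) ranged from -0.135 to 0.115 (cadherins), -0.178 to -0.086 (non-clustered), -0.558 to -0.04 (Pcdha), -0.379 to -0.204 (Pcdhb) and -0.294 to -0.168 (Pcdhg). In Dot1l(fl/+) against Dot1l(+/+) they ranged from -0.163 to 0.004 (non-clustered, lowest without Dot1l(+/+) 2), -0.323 to 0.006 (Pcdha), -0.141 to 0.024 (Pcdhb) and -0.19 to -0.002 (Pcdhg, highest without Dot1l(+/+) 3). In Dot1l(fl/fl) against Dot1l(fl/+) they ranged from -0.048 to 0.118 (non-clustered), -0.332 to 0.038 (Pcdha) and -0.287 to -0.089 (Pcdhb). Locus sums without single libraries were added after seeing the data, and those of Pcdhb in Dot1l(fl/fl) against Dot1l(+/+) ranged from -0.369 to -0.184. The cause was not tested.

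The signs of 4 small fold changes turned. In Dot1l(fl/+) against Dot1l(+/+), Pcdh17 was at 0.081 with the offset and 0.076 with replicate block and offset, and Pcdhb16 at -0.04 with the replicate block and -0.002 with block and offset. Over single omissions Pcdh1 ranged from -0.059 to 0.083, Pcdh17 from -0.154 to 0.083 and Pcdhb16 from -0.191 to 0.268 there, and in Dot1l(fl/fl) Pcdh11x ranged from -0.181 to 0.208 against wild type. With the replicate number as a block, in the comparison of Dot1l(fl/fl) with the wild type 9 members in place of 12 had an unadjusted p under 0.05, 40 of 55 clustered genes in place of 49 were lower, and the Pcdha, Pcdhb and Pcdhg medians were -0.21, -0.274 and -0.28. Per the study's methods, each litter gave embryos of every genotype and pools held embryos of several litters, but the labels do not tie the numbers to litters, and the correlation of deviations was -0.031 to 0.045 for pairs with a number in common and -0.051 to 0.045 for the rest, so the numbers were not taken to pair the libraries. With 2 Dot1l(fl/fl) libraries of the lowest depth, genes near 3 counts could not be compared.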
